A study of Homo sapiens with 6 samples.

Results

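The genes described here are the autophagy machinery, its cargo receptors and the ESCRT and VPS genes of membrane sorting, followed in MOLM14 cells after siRNA against the transcription factor ATF4. Protein-coding genes were taken by symbol: those starting with ATG and a digit, ULK and a digit, WIPI, GABARAP, MAP1LC3, CHMP or VPS (without VPS4B), together with BECN1, PIK3C3, PIK3R4, RB1CC1, AMBRA1, UVRAG, SQSTM1, NBR1, OPTN, BNIP3 and BNIP3L. Of the 88 such genes in the RefSeq table, 74 belonged to a named array feature, out of 14884 named genes in all. The remaining 14, among them BECN1, PIK3C3, PIK3R4, NBR1, WIPI1, WIPI2 and the ATG4 proteases, were not analysed here. MOLM14 is a human cell line grown from an acute myeloid leukaemia with monocytic features. Cells were electroporated with 70 nM of an siRNA that targets ATF4 (siATF4, 3 arrays) or of a control pool with no target (siCTRL, 3 arrays), and total RNA was hybridised to Affymetrix whole-transcript arrays. Both groups therefore carry an siRNA and the electroporation, and the labels give neither a time after transfection nor an untransfected group. The labels call the 3 samples of a group technical replicates, and the p-values here cover the spread among those samples and no other. Samples of 1 group differed widely in some genes (MPO from 5.58 to 10.45 within siATF4), and whether they came from the same RNA or from separate transfections is not given in the sources used here. All levels are log2 values as deposited, and all differences are siATF4 minus siCTRL on that scale. With 3 arrays a group the precision is limited. The standard error (SE) of a difference had a median of 0.16 over the 74 genes.

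Macroautophagy wraps cytoplasm in a new double membrane, the autophagosome, and delivers it to the lysosome. A ULK kinase complex starts the process, a class III PI3-kinase complex marks the membrane with PI3P, ATG9 and ATG2 proteins supply lipid, and a pair of ubiquitin-like conjugation systems attaches ATG8 proteins (the LC3 and GABARAP families) to it, where they hold cargo receptors such as SQSTM1. ESCRT complexes bend and cut membranes away from the cytosol, in multivesicular bodies, in abscission and in closing the autophagosome, while the VPS tethers and retromer direct traffic between endosomes, Golgi and lysosome. ATF4 is known to drive transcription of several autophagy genes in mouse fibroblasts deprived of amino acids, and of ULK1 in stressed human tumour cells. The name of the gene set covers only a part of its content, since the VPS symbols also take in VPS72, a subunit of chromatin remodelling complexes, and tethers with general trafficking roles.

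ATF4 itself read 7.72, 7.88 and 8.14 on the siATF4 arrays, against 8.67, 8.64 and 8.85 on the siCTRL arrays. Its difference was -0.80 (SE 0.14), and the groups did not overlap. Limma gave an unadjusted p of 0.000823 and an adjusted p of 1.00. Of the 6 myeloid and monocytic markers measured, SPI1 read 7.78 or more and FLT3 8.19 or more on each array, and CD14 read 4.18 or less. Markers of other cell types had 6 measured genes, 0 of them called, with EPCAM at 4.08 or less, KRT8 at 5.03 or less, EPOR at 5.18 or less, and KRT18, PECAM1 and NKG7 reaching 7.40, 6.82 and 7.62. Arrays of the same siRNA group also differed from each other. CSF1R, a receptor of the monocytic lineage, was highest on siATF4 replicate 1 at 8.18, with 6.26 and 5.10 on replicates 2 and 3 of siATF4, against 6.57, 6.22 and 5.05 on siCTRL replicates 1 to 3. Its part in the member values was not tested. MPO, a granule enzyme, read 5.58 on siATF4 replicate 1, 8.45 and 10.45 on the other siATF4 arrays, and 9.11 to 10.17 on the siCTRL arrays. LYZ, the lysozyme gene, read 8.33 and 8.51 on the 2 arrays of replicate number 3 and 10.37 or more elsewhere. The mean of 10 interferon-stimulated genes was 4.48, 5.91 and 4.84 on siATF4 replicates 1 to 3, and 6.82, 5.77 and 4.86 on siCTRL replicates 1 to 3. This list was added after seeing the data, so its direction is a description and not support. All 10 genes had a lower mean with siATF4, beside 46.2% of all genes, and 0 were called. Their median difference was -0.78, with medians of -2.58, 0.06 and -0.01 within replicate numbers 1, 2 and 3.

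No autophagy or ESCRT gene was called: 0 of 74 had an adjusted p under 0.05 in limma, as had 0 of all genes (0.0%). At an unadjusted p under 0.05 there were 3 members (4.05%), beside 1.46% of all genes. They were ULK1, which was lower (as were 0.531% of all genes at that level), and VPS26B and VPS26C, which were higher (0.934% of all genes). With the replicate number as a block 5 members lay under that level, against 3.12% of all genes, and 0 passed the adjustment, where the lowest adjusted p of a member was 0.999. Most differences were small. OPTN was the 1 member with a difference of at least 0.5 in size, and its arrays varied most. The 95% confidence interval of the difference lay within a 2-fold change either way for 70 of the 74 members, beside 92.0% of all genes, and within a 1.5-fold change for 41, beside 71.1% of all genes. The 4 members with wider intervals were OPTN, BNIP3L, VPS11 and ULK2.

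**Figure D1:**
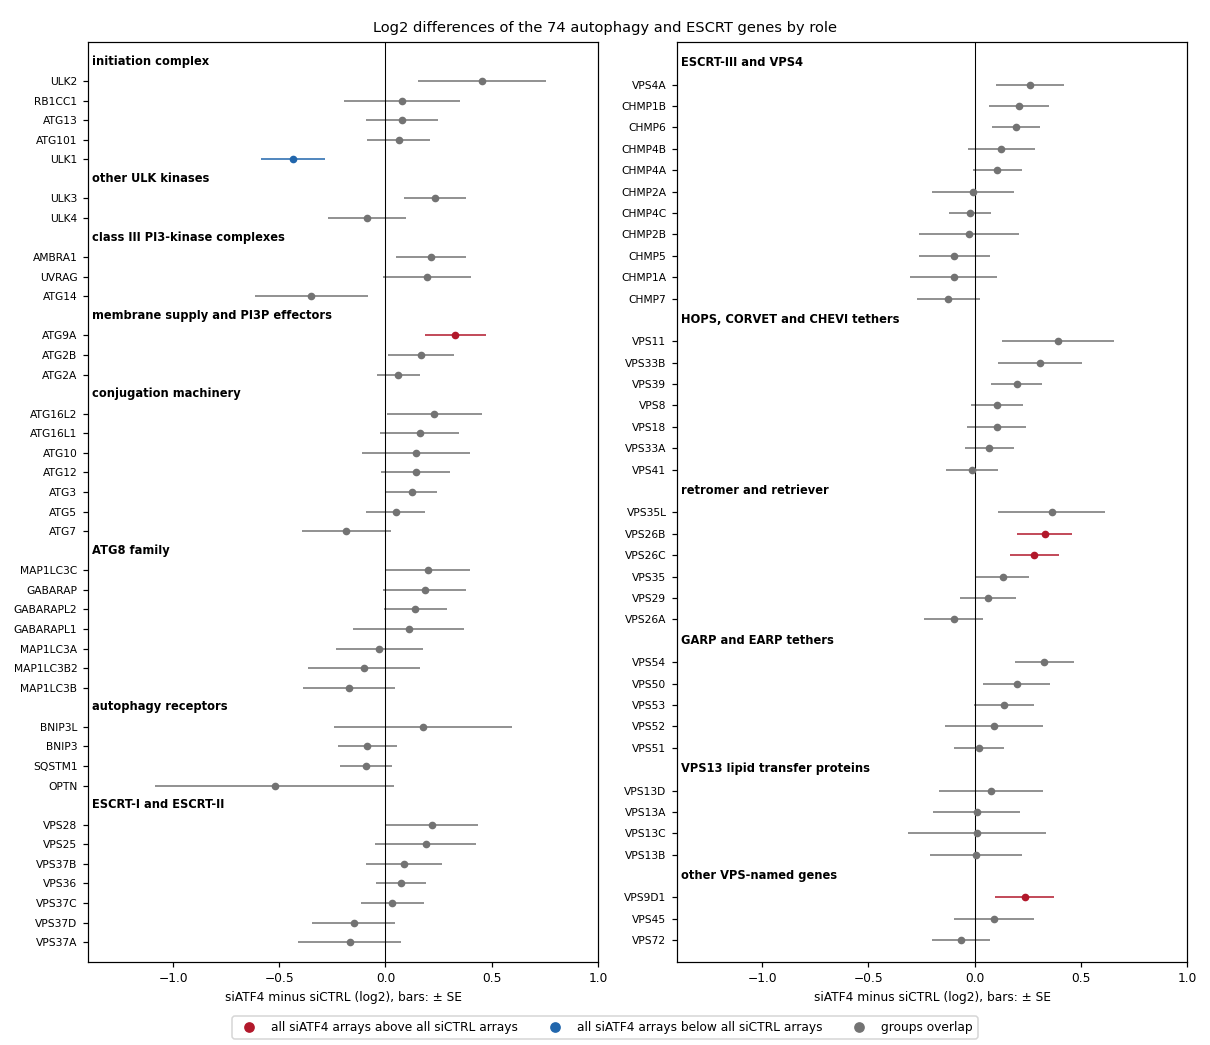
Log2 difference (siATF4 minus siCTRL, horizontal axis) of each of the 74 genes, sorted within role groups, with bars of ± 1 SE from limma. Red points are the 4 genes with all siATF4 arrays above all siCTRL arrays, the blue point is ULK1, with all siATF4 arrays below, and grey points are genes whose groups overlap.

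The direction of the small differences was uneven. Of the 74 members 53 had a higher mean with siATF4 (71.6%), beside 53.8% of all genes, and 21 had a lower mean, beside 46.2% of all genes. Of the members 67 lay at or above the median gene in level, and of all genes there 59.0% had a higher mean. The median difference was 0.09 over the members, 0.04 over the genes at or above the median level and 0.01 over all genes. Arrays can also be set side by side by replicate number, a pairing that comes from the data. Deviations from group means correlated at 0.20, 0.40 and 0.62 within numbers 1, 2 and 3. The pairing is not clear-cut, since siATF4 replicate 2 correlated with siCTRL replicate 1 at 0.48. In that reading 27 members (36.5%) were higher with siATF4 in every replicate number, beside 14.4% of all genes and 19.5% of the genes at or above the median gene in level. This count was added after seeing the data. ULK1 was the 1 member lower in every number (1.35%), beside 9.20% of all genes. Within replicate number 2 the member was higher with siATF4 in 66 of 74 cases, against 47 in number 1 and 44 in number 3, while the shares over all genes were 53.7%, 51.2% and 54.5%. Among the genes at or above the median gene in level the share was 67.5% in number 2, 51.3% in number 1 and 53.6% in number 3. The median difference within number 2 was 0.17 over the members, 0.08 over those brighter genes and 0.02 over all genes.

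That lean moved with single arrays and with the scaling. The median level of the members was 6.70, 6.58 and 6.54 on siATF4 replicates 1 to 3, against 6.60, 6.36 and 6.52 on siCTRL replicates 1 to 3, so siCTRL replicate 2 was the lowest array. Without it the median difference was 0.04, and without siATF4 replicate 1 it was 0.05. Without siCTRL replicate 1 it was 0.15. With quantile normalization 19 members (25.7%) were higher in every replicate number, beside 13.4% of all genes. 

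**Figure D2:**
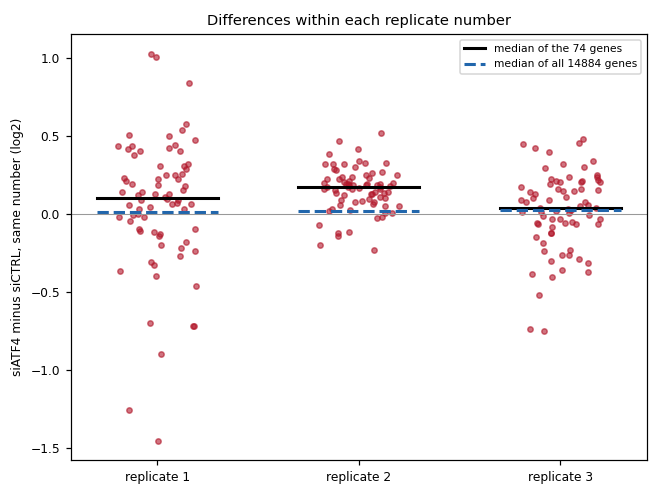
Log2 difference between the siATF4 and the siCTRL array of the same replicate number for each of the 74 genes (points, spread sideways for legibility), with their median (black line) and the median of all 14884 genes (blue dashed line). The member medians were 0.10, 0.17 and 0.04 for numbers 1, 2 and 3, and points spread most widely in number 1.

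**Figure D3:**
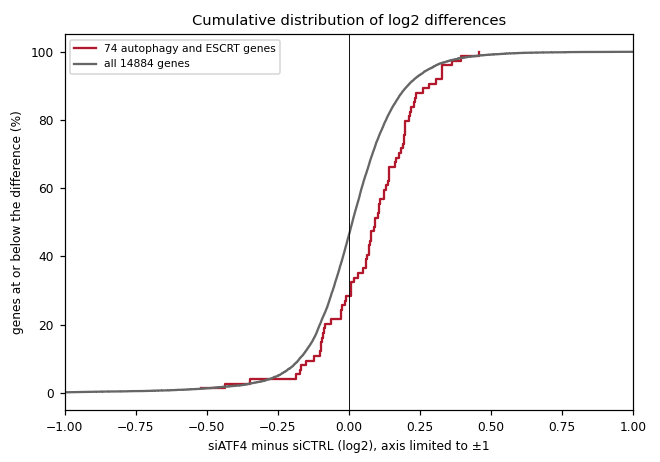
Cumulative percentage of genes (vertical axis) at or below each log2 difference of siATF4 minus siCTRL (horizontal axis, shown within 1 log2 unit either way). The red curve of the 74 genes lies to the right of the grey curve of all 14884 genes at its middle, with medians of 0.09 and 0.01.

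The initiation complex, like most role groups, held differences of both signs. ULK1, the kinase that starts autophagosome formation, read 4.63, 5.10 and 5.06 on the siATF4 arrays, against 5.36, 5.30 and 5.44 on the siCTRL arrays. Each siATF4 array lay below each siCTRL array, as for 2.59% of all genes, and replicate 1 was the lowest. The mean was 4.93 ± 0.26 with siATF4 and 5.37 ± 0.07 with siCTRL (SD, n = 3 each). The difference of -0.43 had a 95% interval from -0.79 to -0.08. Limma gave it an unadjusted p of 0.0240 and an adjusted p of 1.00. A two-sided exact permutation test gave 0.1, which is the lowest value this design allows. Leaving out each array in turn gave differences from -0.52 to -0.29.

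ULK2, the related kinase that can stand in for ULK1, read 5.21, 4.37 and 4.05 with siATF4, against 4.18, 4.27 and 3.81 with siCTRL. The groups overlapped, and siATF4 replicate 1 stood above the other arrays. Its difference of 0.46 (SE 0.30) was the highest of the set and came to 0.12 without that array. On siCTRL replicate 3 ULK2 lay under the median of all features of that array (3.90), so it is dim there. The other subunits lay near 0: ATG13, the regulatory subunit, was at 0.08 (SE 0.17), the scaffold RB1CC1 (FIP200) at 0.08 (SE 0.27), and ATG101, which stabilises ATG13, at 0.06 (SE 0.15). A second, dimmer feature of ATG101 was at -0.19. Of the ULK-named kinases outside the complex, ULK3 was at 0.23 (SE 0.14) and the pseudokinase ULK4 at -0.09 (SE 0.18).

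**Figure D4:**
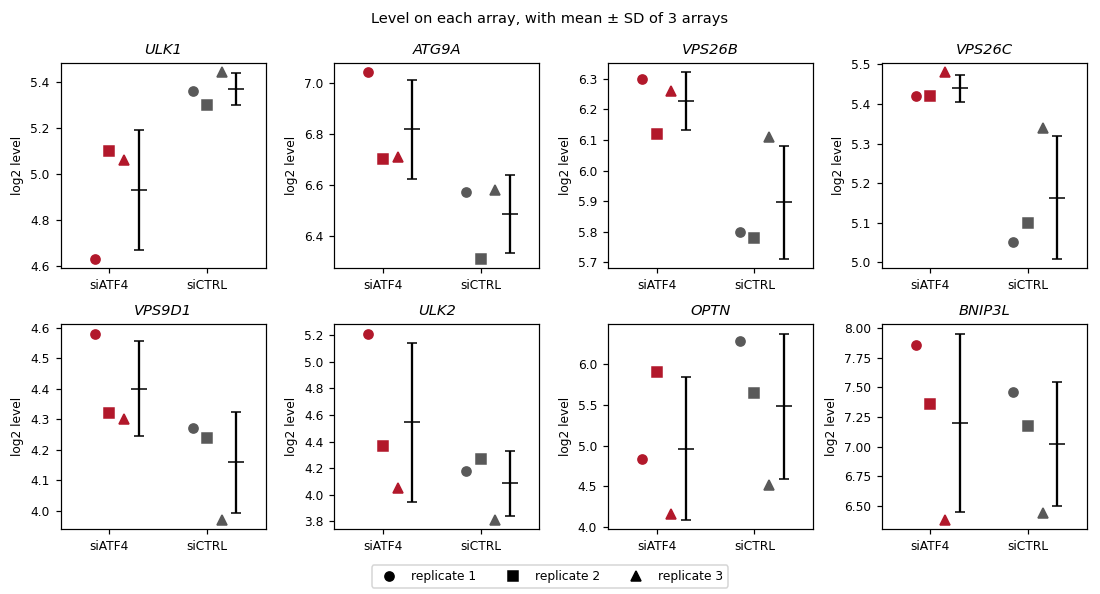
Log2 level of 8 genes on each array, siATF4 on the left (red) and siCTRL on the right (grey), with the symbol giving the replicate number and the black bars the mean ± SD of 3 arrays; vertical axes differ between panels and do not start at 0. The groups are separate for ULK1, ATG9A, VPS26B, VPS26C and VPS9D1, siATF4 replicate 1 stands high for ULK2, and OPTN and BNIP3L are lowest on the arrays of replicate number 3 in both groups.

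Of the class III PI3-kinase complexes 3 members were measured. ATG14, the subunit that directs the kinase to autophagy, read 5.46, 6.22 and 6.22 with siATF4, against 6.72, 6.15 and 6.06 with siCTRL. The arrays of replicate number 1 stood apart, in opposite directions, and the difference of -0.35 (SE 0.27) was -0.10 without siATF4 replicate 1. UVRAG, the subunit of the endosomal form of the complex, was at 0.20 (SE 0.21) and higher in every replicate number. AMBRA1, which links the complex to its regulators, was at 0.22 (SE 0.16).

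All 3 measured genes of membrane supply had a higher mean with siATF4, beside 53.8% of all genes. ATG9A, the scramblase of the vesicles that seed the autophagosome, read 7.04, 6.70 and 6.71 with siATF4, against 6.57, 6.31 and 6.58 with siCTRL. Its groups did not overlap, as for 3.30% of all genes in this direction, and siCTRL replicate 3 lay 0.13 below siATF4 replicate 3. The difference was 0.33 (SE 0.14), with an unadjusted p of 0.0581 and an adjusted p of 1.00 in limma. The lipid transfer proteins ATG2A and ATG2B were at 0.06 (SE 0.10) and 0.17 (SE 0.15).

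The conjugation machinery attaches ATG8 proteins to lipid. Of its 7 measured members 6 had a higher mean, beside 53.8% of all genes. Higher in every replicate number were 5 of these, beside 14.4% of all genes: ATG3, ATG10, ATG12, ATG16L1 and ATG16L2. Among genes at or above the median gene in level these shares were 59.0% and 19.5%. ATG5 and ATG16L1 turned sign with array weights, and ATG5, ATG7, ATG10 and ATG12 with arrays left out. ATG16L1, the scaffold that places conjugation on the membrane, read 6.23, 5.75 and 5.87 with siATF4, against 6.08, 5.58 and 5.71 with siCTRL. Its differences by number were 0.15, 0.17 and 0.16, close to each other although the arrays of number 1 were the brightest in both groups. The difference of 0.16 had an SE of 0.19 without the block, and with the block the unadjusted limma p was 0.172. ATG3, the enzyme that passes ATG8 to lipid, was at 0.12 (SE 0.12) and the ubiquitin-like ATG12 at 0.14 (SE 0.16). ATG10, which conjugates ATG12, was at 0.14 (SE 0.25), ATG5, its acceptor, at 0.05 (SE 0.14) and ATG16L2 at 0.23 (SE 0.22). ATG7, the activating enzyme of both systems, was at -0.19 (SE 0.21), with 7.41 on siCTRL replicate 1 and 6.69 to 7.05 on the siATF4 arrays.

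In the ATG8 family the 3 GABARAP genes had higher means with siATF4 and 3 of the 4 LC3 genes had lower ones, and the 95% interval of each of the 7 spanned 0. GABARAP read 8.45, 8.11 and 7.71 with siATF4, against 8.02, 7.94 and 7.77 with siCTRL, a difference of 0.18 (SE 0.20). GABARAPL2 was at 0.14 (SE 0.15), higher in every replicate number, and GABARAPL1 at 0.11 (SE 0.26). MAP1LC3B, the LC3 form used as the standard autophagosome marker, read 4.83, 4.55 and 4.48 with siATF4, against 4.69, 4.45 and 5.23 with siCTRL. Its difference of -0.17 (SE 0.22) came from replicate number 3 (-0.75), while numbers 1 and 2 were at 0.14 and 0.10. MAP1LC3B2 is a near-identical copy of MAP1LC3B, so features of the 2 genes may share target, and its -0.10 (SE 0.27) is uncertain for that reason. MAP1LC3A was at -0.03 (SE 0.20) and MAP1LC3C at 0.20 (SE 0.20). The means of MAP1LC3B2 and MAP1LC3C, like those of VPS37D and CHMP4C, lay under the highest array median of all features (3.96). These 4 were the dimmest of the set and are read with caution for that reason. Their spread was not the widest, and CHMP4C had the lowest within-group SD of the set (0.057).

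Cargo receptors tie ubiquitinated proteins or mitochondria to ATG8. SQSTM1 (p62), the receptor for ubiquitinated aggregates, read 6.96, 6.99 and 6.96 with siATF4, against 6.98, 6.94 and 7.27 with siCTRL. The siATF4 arrays lay close together (SD 0.02) and siCTRL replicate 3 stood above them, with a difference of -0.09 (SE 0.12) with a 95% interval from -0.38 to 0.20. OPTN, a receptor in the clearance of mitochondria and bacteria, read 4.83, 5.90 and 4.16 with siATF4, against 6.28, 5.65 and 4.52 with siCTRL. It had the highest within-group SD of the set (0.88), and its difference of -0.52 (SE 0.56) came to -0.12 when siATF4 replicate 3 was left out and to -1.003 when siCTRL replicate 3 was. OPTN and the 10 interferon-stimulated genes given above were highest on siCTRL replicate 1 in the siCTRL group and on replicate 2 in the siATF4 group. The part of the interferon genes in the OPTN values was not tested. The mitophagy receptor BNIP3L read 7.86, 7.36 and 6.38 with siATF4, against 7.46, 7.17 and 6.44 with siCTRL. It was lowest on the arrays of replicate number 3 in both groups and differed by 0.18 (SE 0.42). Its relative BNIP3 was at -0.09 (SE 0.14).

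ESCRT genes were spread on either side of 0. Of the 18 measured, 10 had a higher mean and 8 a lower one, with a median difference of 0.05. For none did the groups separate, beside 5.89% of all genes, and with so few genes this is not read as a result. CHMP2A turned sign when arrays were set to equal medians. In ESCRT-I, which recognises ubiquitinated cargo, VPS28 was at 0.22 (SE 0.22), VPS37A at -0.17 (SE 0.24), VPS37B at 0.09 (SE 0.18), VPS37C at 0.03 (SE 0.15) and VPS37D at -0.15 (SE 0.20). A second feature of VPS37B was at -0.25, opposite to the brighter one. The ESCRT-II subunits VPS25 and VPS36 were at 0.19 (SE 0.24) and 0.07 (SE 0.12).

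Among the ESCRT-III filament proteins, CHMP1B at 0.21 (SE 0.14), CHMP6 at 0.19 (SE 0.11), CHMP4B at 0.13 (SE 0.16) and CHMP4A at 0.11 (SE 0.12) had higher means. CHMP7, which recruits ESCRT-III to the nuclear envelope, was at -0.12 (SE 0.15), and CHMP5 and CHMP1A were both at -0.10 (SE 0.17 and 0.20). CHMP2A (-0.01), CHMP4C (-0.02) and CHMP2B (-0.03) lay at 0 within their error. VPS4A, the ATPase that takes the filaments apart, read 7.36, 7.13 and 7.55 with siATF4, against 6.96, 6.96 and 7.34 with siCTRL. It was higher in every replicate number, the groups overlapped, and the difference was 0.26 (SE 0.16).

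Retromer retrieves receptors from endosomes, and retriever is a related complex. VPS26B, a cargo-binding arrestin-fold subunit of retromer, read 6.30, 6.12 and 6.26 with siATF4, against 5.80, 5.78 and 6.11 with siCTRL. The mean was 6.23 ± 0.10 with siATF4 and 5.90 ± 0.19 with siCTRL (SD, n = 3 each), and the groups were separated by a narrow gap at siCTRL replicate 3. Its difference of 0.33 had a 95% interval from 0.02 to 0.64, an unadjusted p of 0.0415 and an adjusted p of 1.00 in limma. VPS26C, the corresponding retriever subunit, read 5.42, 5.42 and 5.48 with siATF4, against 5.05, 5.10 and 5.34 with siCTRL. Its groups were separate as well, with a difference of 0.28 (95% interval 0.0043 to 0.56), an unadjusted p of 0.0474 and an adjusted p of 1.00 in limma. The paralog VPS26A was at -0.10 (SE 0.14) and its groups overlapped. The shared subunit VPS29 was at 0.06 (SE 0.13), the retromer core VPS35 at 0.13 (SE 0.12) and the retriever core VPS35L at 0.36 (SE 0.25), or 0.08 without siATF4 replicate 1.

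The tethers of endosome and Golgi traffic mostly had higher means, as had 53.8% of all genes. In HOPS and CORVET, which join late or early endosomes to their targets, 6 of 7 members, counting the related CHEVI subunit VPS33B, had higher means with siATF4, and VPS41 joined them when arrays were set to equal medians. VPS11, a core subunit, read 7.80, 6.94 and 6.80 with siATF4, against 6.96, 6.71 and 6.70 with siCTRL. The arrays overlapped, and the difference of 0.39 (SE 0.27) was 0.08 without siATF4 replicate 1. VPS33B was at 0.31 (SE 0.20), VPS39 at 0.20 (SE 0.12), VPS8 at 0.11 (SE 0.12), VPS18 at 0.10 (SE 0.14), VPS33A at 0.07 (SE 0.12) and VPS41 at -0.01 (SE 0.12).

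All 5 GARP and EARP subunits had higher means with siATF4, beside 53.8% of all genes. Of these VPS51 turned sign with quantile normalization and with the mean of features, and VPS52 with array weights. These complexes tether vesicles that return from endosomes. VPS54, the GARP-specific subunit, read 6.40, 6.10 and 6.37 with siATF4, against 6.14, 5.82 and 5.92 with siCTRL. It was higher in every replicate number by 0.25, 0.28 and 0.45, but siATF4 replicate 2 lay below siCTRL replicate 1. Its difference of 0.33 (SE 0.14) had an unadjusted p of 0.0511 in limma, or an unadjusted p of 0.0258 with the replicate block, and an adjusted p of 0.999 there. The EARP-specific VPS50 was at 0.20 (SE 0.16), VPS53 at 0.14 (SE 0.14), VPS52 at 0.09 (SE 0.23) and VPS51 at 0.02 (SE 0.12). A second, dimmer feature of VPS51 was at -0.25.

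The 4 VPS13 proteins, which move lipid between organelles, differed by 0.01 (VPS13A, VPS13B and VPS13C, each turning sign with quantile normalization) and 0.08 (VPS13D). Of the rest, VPS9D1 read 4.58, 4.32 and 4.30 with siATF4, against 4.27, 4.24 and 3.97 with siCTRL, and its groups did not overlap. That difference was 0.23 (SE 0.14), with an unadjusted p of 0.132 in limma. VPS45, an SM protein of endosomal fusion, was at 0.09 (SE 0.19) and the chromatin subunit VPS72 at -0.06 (SE 0.14). In all 5 members (6.76%) had groups without overlap, ULK1 below and ATG9A, VPS26B, VPS26C and VPS9D1 above, beside 5.89% of all genes, so this share is near the background.

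Members that earlier work ties to ATF4 or its partner CHOP, largely in mouse cells, were split in direction. Of the 11 measured, 4 had a lower mean with siATF4 (ULK1, ATG7, MAP1LC3B and SQSTM1) and 7 a higher one (ATG3, ATG5, ATG10, ATG12, ATG16L1, GABARAP and GABARAPL2). The median difference was 0.12, beside 0.01 over all genes, and 0 were called in limma. ULK1 was the 1 member of this list lower in every replicate number, and 5 were higher in every number. The median was at -0.05 without siATF4 replicate 3 and at -0.03 without siCTRL replicate 2, so its sign rested on those arrays.

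Genes of the same pathways with symbols outside the rule gave 0 calls in limma among 37 measured. Of 14 listed ESCRT partners, which include the ESCRT-0 subunits HGS, STAM and STAM2 and the ESCRT-I core TSG101, 8 were measured. All 8 had higher means with siATF4 (STAMBP turned sign with quantile normalization), and 7 were higher in each number. The median difference was 0.18. Of all genes 53.8% had a higher mean and 14.4% were higher in every number. Among genes at or above the median gene in level these shares were 59.0% and 19.5%. Differences of the partners ran from 0.02 (SE 0.15) for the deubiquitinase STAMBP to 0.34 (SE 0.20) for STAM2, which sorts ubiquitinated receptors. Further cargo receptors were lower in 5 of 8 cases, from -0.13 (SE 0.15) for TAX1BP1 to 0.14 (SE 0.16) for the mitophagy receptor FUNDC1. Other machinery and regulators were higher in 13 of 21 cases, from -0.22 (SE 0.15) for the PI3P-binding WDR45B to 0.35 (SE 0.16) for EPG5, a tether of autophagosome and lysosome. In no list did a member pass the adjusted threshold.

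Promoter windows from RefSeq (GRCh38.p14), 250 bases before to 50 after the start of a gene, were found for 56 of the 74 members. They were searched on both strands for the C/EBP-ATF response element through which ATF4 acts (TGATGNAAN) and for the CLEAR core bound by TFEB and TFE3, regulators of lysosome and autophagy genes (TCACGTGA). No match of a member overlapped another. The ATF element was found in 1 member window (1.79%), that of MAP1LC3C, beside 2.24% of the 10749 windows of genes on the array table and 3.67% of all 27305 windows. The CLEAR core was found in 3 (5.36%), ATG3, CHMP4A and VPS11, beside 1.49% of the windows of array genes and 1.04% of all windows. A match is a description of letters and not of binding. Stretches of 120 bases before the start are shown for the matched CHMP4A and VPS11, whose differences were 0.11 and 0.39, for MAP1LC3C as the 1 ATF match, and for ULK1, the 1 member with all siATF4 arrays below siCTRL, whose window held neither motif. Capitals mark the match, and each runs 5′ to 3′ on the strand of the gene.
VPS11, chr11:119067698-119067817, plus strand: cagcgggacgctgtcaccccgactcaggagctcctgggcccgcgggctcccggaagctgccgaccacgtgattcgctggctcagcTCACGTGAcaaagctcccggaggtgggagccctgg
CHMP4A, chr14:24213489-24213608, minus strand: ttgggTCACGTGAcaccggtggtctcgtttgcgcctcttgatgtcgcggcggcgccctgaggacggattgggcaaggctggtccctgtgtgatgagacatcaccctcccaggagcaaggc
MAP1LC3C, chr1:241999099-241999218, minus strand: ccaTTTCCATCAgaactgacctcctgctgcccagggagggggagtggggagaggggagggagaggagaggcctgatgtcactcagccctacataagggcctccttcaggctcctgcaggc
ULK1, chr12:131894502-131894621, plus strand: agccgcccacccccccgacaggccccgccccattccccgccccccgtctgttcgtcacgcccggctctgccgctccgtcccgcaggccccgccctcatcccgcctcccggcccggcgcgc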

How the data were processed

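The authors deposited 1 value for each of 53617 array features and 6 samples, which were read as log2 from their range of 1.91 to 14.2. Per the submitters' processing notes Partek was used. Its settings, the normalization and the logarithm's base are not given in the sources used here. Array medians, 3.88 to 3.96, were left as deposited. Of the features 16098 had 1 gene symbol and 37519 had none. The brightest feature stood for a gene with several (779 genes, 4 members), which left 14884 genes.

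Groups were compared in R 4.3.3 by limma 3.58.1 (eBayes after lmFit with only the group term, Benjamini-Hochberg over all genes, threshold 0.05), after the fit was tested on simulated data. Intervals are limma's 95% intervals, SE is limma's moderated error and SD is over 3 arrays. Deviations from group means correlated at 0.20, 0.40 and 0.62 for replicate numbers 1, 2 and 3, each over the limit of 0.1, so fits with the number as a block were added. The pairing comes from the data, and siATF4 replicate 2 correlated with siCTRL replicate 1 at 0.48.

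The genes to name were ATF4, the 10 lowest and 10 highest members, members without overlap, the ATG8 family, the receptors, the ATF4-linked members and the extremes of each pathway list. Array values are given for those the results turn on. Members and lists were chosen with earlier results of these data known. The interferon list and the counts of members higher in every replicate number were added after seeing the data. Alternatives were the replicate block, equal array medians, quantile normalization, limma-trend with a robust prior, array weights, dropping the 4962 dimmest genes, the mean of all features, a threshold of 0.1, and leaving out arrays or replicate numbers.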

Additional observations from a re-analysis of the deposited data

How the results depend on the processing

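In limma 0 genes and 0 members were called under each alternative run, the replicate block included (0 in that fit too), and with the threshold at 0.1. ATF4 ranged from -0.91 to -0.71 with arrays left out. The median of the members stayed above 0 in every alternative, from 0.04 to 0.15 with arrays left out, at 0.04 with array weights and at 0.06 with quantile normalization, and the number of lower members ranged from 16 to 28. The median of the ATF4-linked members ranged from -0.049 to 0.14 with arrays left out and was -0.02 with array weights. Members without overlap ranged from 7 to 26 with fewer arrays, where separation is easier by construction. The share over all genes was not computed for those settings, so this range is not read as a result. Without replicate number 1 or 3, 41 members (55.4%) were higher in every remaining number, beside 29.7% and 28.1% of all genes. Without number 2 there were 29 such members (39.2%), beside 25.2% of all genes.

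The replicate block, limma-trend and the dropping of dim genes leave the difference of each gene unchanged, so no sign could turn there. The share of all genes that kept their sign was not computed, so the count that follows is not read as a result. The sign of the difference held in every alternative for 35 of 74 members, 4 lower and 31 higher, ULK1, ATG9A, VPS26B, VPS26C, VPS54 and VPS4A among them. With array weights it turned for ATG16L1 (-0.023), ATG5 (-0.017), BNIP3L (-0.001), CHMP2B (0.061), CHMP4C (0.028), RB1CC1 (-0.079), VPS13B (-0.059), VPS13C (-0.030), VPS37B (-0.078), VPS37C (-0.0066), VPS52 (-0.044), VPS72 (0.0057) and STAMBP (-0.065). With equal medians CHMP2A (0.0056) and VPS41 (0.0018) turned. With the mean of features ATG101 (-0.063), VPS37B (-0.082) and VPS51 (-0.11) turned. With quantile normalization VPS13A (-0.0089), VPS13B (-0.020), VPS13C (-0.0079), VPS51 (-0.0005) and STAMBP (-0.0055) turned. The cause was not tested. With arrays left out, the sign turned for ATG14 (-0.60 to 0.11), ATG7 (-0.38 to 0.082), MAP1LC3B2 (-0.36 to 0.30), VPS37D (-0.35 to 0.15), VPS37A (-0.34 to 0.055), MAP1LC3B (-0.34 to 0.12), VPS13C (-0.31 to 0.23), CHMP1A (-0.29 to 0.11), CHMP5 (-0.27 to 0.013), MAP1LC3A (-0.25 to 0.15), TAX1BP1 (-0.24 to 0.039), VPS26A (-0.21 to 0.053), CHMP2B (-0.20 to 0.31), VPS72 (-0.20 to 0.068), VPS13A (-0.18 to 0.24), ULK4 (-0.18 to 0.086), CHMP2A (-0.18 to 0.13), SQSTM1 (-0.16 to 0.014), RB1CC1 (-0.16 to 0.32), BNIP3L (-0.15 to 0.59), VPS13B (-0.15 to 0.18), VPS52 (-0.14 to 0.27), VPS13D (-0.12 to 0.29), GABARAPL1 (-0.12 to 0.35), VPS45 (-0.097 to 0.32), VPS41 (-0.096 to 0.046), VPS37C (-0.091 to 0.16), STAMBP (-0.086 to 0.13), VPS37B (-0.081 to 0.20), VPS51 (-0.075 to 0.095), ATG13 (-0.074 to 0.25), ATG10 (-0.07 to 0.33), CHMP4C (-0.058 to 0.0072), ATG101 (-0.055 to 0.14), ATG5 (-0.049 to 0.17), VPS25 (-0.047 to 0.36), VPS29 (-0.019 to 0.21), ATG12 (-0.014 to 0.25), VPS33A (-0.0055 to 0.17), ATG2A (-0.0023 to 0.11).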
